A study of Mus musculus with 5 samples.

Results

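The Ifitm family was examined in blood stem and progenitor cells as 5 genes, Ifitm1, Ifitm2, Ifitm3, Ifitm6 and Ifitm10, found by symbol among the 39056 genes of the count table. RNA came from cells of the Lin-Sca-1+Kit+ (LSK) phenotype, the marrow fraction enriched for stem cells and early progenitors, with about 12000 cells sorted per library from C57BL/6 mice at postnatal day 15. 2 libraries were from wild-type (WT) mice and 3 from Gabbr1 null mutant mice, which lack a subunit of the GABA-B receptor, so that the comparison asks what loss of this receptor does to gene expression in these cells. Gabbr1 itself was read 402 and 403 times in the WT libraries and 289, 264 and 268 times in the null libraries (log2 fold change -0.59 ± 0.13, edgeR adjusted p = 0.0361). Which part of Gabbr1 was deleted is not stated in the labels, so counts over the whole gene check the labels only in part, and sex and litter are not stated either. Total counts ranged from 6972753 to 8150774 per library. The extraction protocol speaks of 4 animals per genotype, and no label ties a library to a single animal, so error estimates measure the spread between these libraries, which may be technical. Ifitm1 was already known to be lower in null in these data, with a log2 fold change (null over WT) of -0.74 ± 0.14 (SE) and an edgeR adjusted p of 0.0158, and the family was chosen by those values. The genotype contrast of the 5 genes is therefore given as a description, and nothing is supported with it.

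IFITM proteins are small membrane proteins that sit in the plasma membrane and in endosomes, where they hinder the fusion of enveloped viruses with the cell. Interferons induce Ifitm1, Ifitm2 and Ifitm3 in many cell types, and stem cells are known to carry several of these transcripts in the absence of infection. Ifitm6 is a family member of myeloid cells, and Ifitm10 is a distant relative. In bulk RNA from sorted cells, fewer cells of a type and less RNA per cell cannot be told apart.

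4 of the genes lie side by side on chromosome 7 (mm10), in a cluster that also holds Ifitm5. Ifitm2 spans bases 140954837 to 140955987 on the minus strand, Ifitm1 bases 140967221 to 140969825 on the plus strand, Ifitm3 bases 141009586 to 141010770 on the minus strand and Ifitm6 bases 141015699 to 141017924 on the minus strand. Ifitm10 lies apart on the same chromosome, from 142325837 to 142373753. The coding sequences of Ifitm1, Ifitm2 and Ifitm3 were close to each other, with 82.1% identical bases over the aligned stretch for Ifitm1 against Ifitm2 and for Ifitm1 against Ifitm3, and 80.9% for Ifitm2 against Ifitm3. Identity of these 3 over the aligned stretch was between 65.7% and 68.8% with Ifitm6, and between 66.7% and 69.3% with Ifitm10. These values leave out unaligned bases. As a share of the longer coding sequence, identity was 58.1% to 58.6% with Ifitm6 and 36.0% to 43.1% with Ifitm10. On that scale Ifitm2 and Ifitm3 were the closest pair at 76.4%, with Ifitm1 at 60.4% against Ifitm2 and 63.5% against Ifitm3.

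The start regions of the 3 abundant members are shown because they differ in a motif that interferon-activated factors are known to bind. The core of the interferon-stimulated response element was searched as GAAA, any 2 bases and GAAA, on both strands, in windows of 250 bases before to 50 after each start taken from RefSeq (GRCm38.p6). Ifitm1 is shown from chr7:140967826-140968027 on the plus strand, a stretch that lies in an intron of its longest isoform, and Ifitm2 from chr7:140955988-140956211 on the minus strand, upstream of its first exon. Ifitm3 is shown as the first 30 bases after its RefSeq start, chr7:141010715-141010744 on the minus strand, in the 5′ untranslated part of exon 1. Capitals mark matches to the motif.
Ifitm1: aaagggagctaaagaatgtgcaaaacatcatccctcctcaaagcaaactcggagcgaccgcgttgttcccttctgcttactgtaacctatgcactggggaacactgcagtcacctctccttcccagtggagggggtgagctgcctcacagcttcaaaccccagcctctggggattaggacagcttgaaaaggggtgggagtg
Ifitm2: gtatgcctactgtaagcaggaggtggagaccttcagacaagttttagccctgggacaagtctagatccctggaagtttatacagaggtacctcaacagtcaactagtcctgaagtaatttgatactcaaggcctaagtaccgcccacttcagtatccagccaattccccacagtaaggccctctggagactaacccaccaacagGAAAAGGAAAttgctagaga
Ifitm3: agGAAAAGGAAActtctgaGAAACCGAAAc

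The window of Ifitm2 held 1 match and that of Ifitm3 held 2, all on the strand of the gene. The first match of Ifitm3 has the same letters as the match of Ifitm2, GAAAAGGAAA. The windows of Ifitm1, Ifitm6 and Ifitm10 held none, which says only that these letters are not in those windows. Over all 32851 windows of this length, 3.44% held the motif on either strand. Counted by gene, 3.99% of 27025 held it in at least 1 window. So did 18 of the 39 interferon-induced genes listed below that had a window. A second motif, TTC followed by any 3 bases and GAA, the core of the gamma-activated sequence that STAT dimers are known to bind, reads as itself on the other strand. It occurred once in the Ifitm3 window, in the stretch between the matches shown above and sharing bases with the second of them, and once in the Ifitm6 window. 8.30% of all windows held it.

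Among the members, Ifitm3 was the most abundant, Ifitm2 and Ifitm1 followed, and Ifitm6 and Ifitm10 were near the limit of detection in WT. Levels of different genes are compared as CPM (counts scaled to a common library size with TMM factors) per kilobase of merged exons. On that scale Ifitm3 was at 215 ± 8.05 in WT (SD, n = 2), Ifitm2 at 105 ± 6.99 and Ifitm1 at 92.5 ± 15.2. Ifitm2 was above Ifitm1 in both WT libraries (100.3 against 81.7 in library 1 and 110.2 against 103 in library 2), and Ifitm3 was above both (220.4 and 209.0). The order of Ifitm1 and Ifitm2 depends on the length used, since per kilobase of the longest transcript Ifitm1 had the higher WT mean (115 ± 18.9 against 105 ± 6.99, SD, n = 2). Ifitm1, Ifitm2 and Ifitm3 stood above 97.0%, 97.5% and 98.8% of the 13445 tested genes with a length. Ifitm6 was at 1.45 ± 0.264 per kilobase in WT (SD, n = 2), above 17.1% of those genes, and Ifitm10 at 0.0149 ± 0.0210.

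The level of Ifitm2 is the least certain of these. An annotated read-through gene, Gm45717, shares 268 of the 655 exonic bases of Ifitm2 on the same strand, and processed pseudogenes resemble it as well, so that 48.5% of the distinct 50-base stretches of the Ifitm2 transcript occur in another gene. The share was 10.0% for Ifitm3, 5.02% for Ifitm1, 3.51% for Ifitm10 and 0% for Ifitm6. Only 1.42% of the Ifitm1 stretches, 3.30% of those of Ifitm2 and 5.56% of those of Ifitm3 occurred in another of the 5 genes. Gm45717 itself had 1 count in all libraries together, and reads that match several genes may have been left out of the counts, a setting not given in the sources used here. Set per kilobase of distinct stretches that no other gene shares, a scale chosen after the data were seen, WT levels were 257 ± 9.64 CPM for Ifitm3, 221 ± 14.7 for Ifitm2 and 101 ± 16.6 for Ifitm1 (SD, n = 2).

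Ifitm1, whose product is the family member most tied to the cell surface, had 726 and 793 counts in the WT libraries, and 429, 535 and 432 counts in null libraries 1, 2 and 3. TMM-normalised levels were 89.4 and 113 CPM for WT and 57.2, 70.6 and 53.3 CPM for null. All 3 null libraries were below both WT libraries, the highest null value belonging to library 2 and the lowest to library 3. The WT mean was 101 ± 16.7 CPM (SD, n = 2) and the null mean 60.3 ± 9.09 CPM (SD, n = 3), a decrease of the fitted level by 40.3%. Without WT library 2 the log2 fold change was -0.57 ± 0.15 (SE) and without null library 3 -0.66 ± 0.16 (SE), and Ifitm1 was then no longer among the called genes (edgeR adjusted p = 0.292 and 0.0508).

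Ifitm3, the member best known for blocking virus entry from endosomes, had 1214 and 995 counts in WT and 1045, 668 and 844 in null. Normalised to CPM, the WT libraries stood at 149 and 142 and null libraries 1, 2 and 3 at 139, 88.1 and 104. Null library 1 lay within 3 CPM of WT library 2, while null libraries 2 and 3 were well below both WT libraries. The log2 fold change was -0.40 ± 0.16 (SE), and Ifitm3 was not among the called genes. It was called lower without null library 1 (-0.60 ± 0.14, edgeR adjusted p = 0.0255). Null library 1 was also the only library with the X-inactivation transcript Xist (22532 counts, at most 21 in the others) and without Y-linked counts. The other libraries had 1140 to 1567 Y-linked counts. By these counts null library 1 reads as female and the others as male, so in null library 1 sex cannot be told apart from other differences between libraries.

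Ifitm2, a close paralogue of Ifitm3, had 534 and 507 counts in WT and 427, 397 and 494 in null. Normalised levels came to 65.7 and 72.2 in WT and 56.9, 52.4 and 60.9 in null (CPM). The groups did not overlap, but the gap between null library 3 and WT library 1 was about as large as the SD within each group (4.58 CPM in WT and 4.26 CPM in null). The log2 fold change was -0.28 ± 0.12 (SE), and Ifitm2 was not called in any of the fits run.

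**Figure D1:**
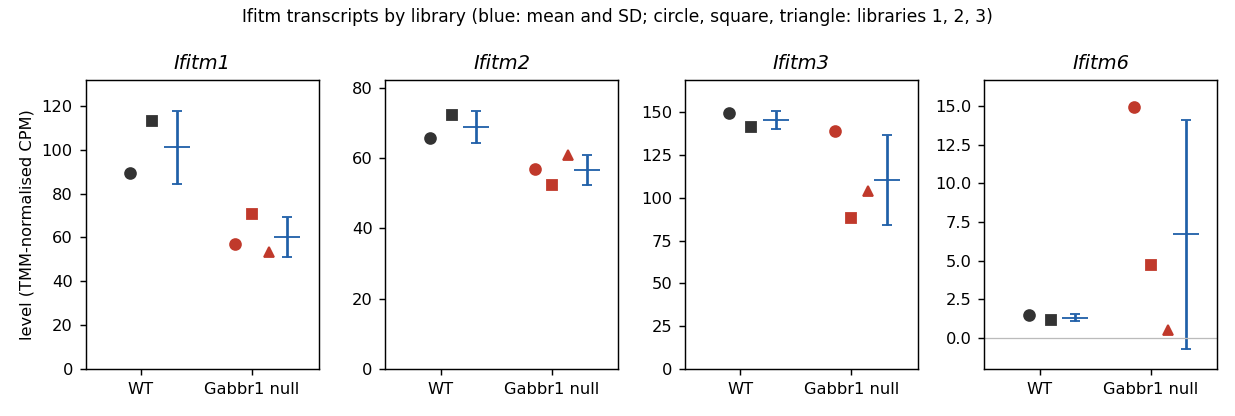
TMM-normalised CPM of Ifitm1, Ifitm2, Ifitm3 and Ifitm6 in each library (black, WT; red, Gabbr1 null; circle, square and triangle, libraries 1, 2 and 3), with the mean and SD in blue. The null libraries of Ifitm1, Ifitm2 and Ifitm3 all lie below the WT libraries, null library 1 of Ifitm3 by under 3 CPM, and Ifitm6 is high in null libraries 1 and 2 only.

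Between genotypes, 45 of 13467 tested genes were lower and 289 higher in null (edgeR, adjusted p under 0.05), which is 0.334% and 2.15% of genes. These counts move with single libraries: without WT library 2 they were 0 lower and 32 higher (339 and 808 at an unadjusted edgeR p under 0.05), without WT library 1 37 lower and 101 higher, and without null library 3 15 lower and 316 higher. DESeq2 called 0.379% lower and 2.5% higher, and limma-voom 0.26% lower and 1.62% higher. The unadjusted edgeR p was under 0.05 for 4.84% of genes with a negative and 7.99% with a positive change. 4 of the 5 members passed the filter on low counts, and 1 of these, Ifitm1, was called lower and none higher. 3 of the 4 had null libraries all below the WT libraries, as had 13.7% of all tested genes (15.5% had the reverse). Nothing is read from these shares, since the contrast was known when the family was chosen.

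The proportions of the members varied between libraries. Ifitm1 gave 29.2% and 34.4% of the family's counts in WT and 21.3%, 32.7% and 24.3% in null libraries 1, 2 and 3. Ifitm3 gave 48.8% and 43.2% in WT and 51.9%, 40.8% and 47.5% in null. The ratio of Ifitm1 to Ifitm3 counts was 0.598 and 0.797 in WT and 0.411, 0.801 and 0.512 in null, so the groups overlapped through null library 2. The ratio of Ifitm1 to Ifitm2 counts was 1.36 and 1.56 in WT and 1.00, 1.35 and 0.874 in null, where null library 2 came within 0.02 of WT library 1. Null library 2 thus had the highest Ifitm1 and the lowest Ifitm3 and Ifitm2 of the null libraries. The family's summed level was 306 and 328 in WT and 268, 216 and 219 in null (CPM).

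Ifitm6 was low and uneven between libraries. It had 12 and 8 counts in WT and 112, 36 and 4 in null libraries 1, 2 and 3, or 1.48 and 1.14 for WT and 14.9, 4.75 and 0.493 in null (CPM). Null libraries 1 and 2 were above WT and null library 3 was below it, so the groups overlapped, and the log2 fold change of 2.33 ± 0.94 (SE) was not called. Without null library 1 it was 0.97 ± 0.71 (SE), and without null library 3 it was 2.89 ± 0.55 (SE), with Ifitm6 then among the called genes (edgeR adjusted p = 0.0103).

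The summed level of mature neutrophil markers was also highest in null library 1, followed by null library 2. Summed over 14 such markers, the WT libraries were at 330 and 331 CPM, and null libraries 1, 2 and 3 at 2401, 755 and 282 CPM. Of 11 tested, 8 had a positive change and 2 a negative one at an unadjusted edgeR p under 0.05, and none was called. Over all tested genes, 7.99% had a positive and 4.84% a negative change at that unadjusted p. EdgeR called 2.15% of all tested genes higher and 0.334% lower. The granule gene Ltf had 139 and 124 counts in WT and 1831, 501 and 106 in null, and Ngp, another granule gene, 293 and 191 in WT and 4716, 1365 and 262 in null. Of the list, Mmp8 had no count in WT or in null library 3, Retnlg none in WT library 2 and Ly6g none in null library 3. Csf3r, the receptor for G-CSF, which progenitors also carry, made up much of the sum in WT (1262 and 1366 counts). It was lower in each null library (1088, 1042 and 1041 counts), at -0.35 ± 0.12 (log2, SE). Padi4 was also lower in each null library, with 219 and 189 counts in WT and 165, 154 and 145 in null (-0.43 ± 0.16, SE). These were the 2 tested markers with a negative change, and neither was called. Without Csf3r, a sum added after the data were seen, the WT libraries were at 175 and 136 CPM and the null libraries at 2256, 618 and 154 CPM, so that null library 3 lay between the WT libraries. 14 monocyte, macrophage and dendritic cell markers summed to 138 and 145 in WT and 304, 176 and 131 in null (CPM). C1qa was at 0 in null library 3 and C1qb at 0 in null library 2. Of the 10 tested, edgeR called 2 higher and 0 lower (unadjusted p under 0.05: 5 higher, 0 lower), beside the shares over all tested genes given above. The 2 were Ccr2 (log2 fold change 2.80 ± 0.53, SE, edgeR adjusted p = 0.0147) and F13a1 (2.90 ± 0.55, SE, edgeR adjusted p = 0.0148). Null library 3 was above WT for each, with Ccr2 at 3.95 CPM and F13a1 at 5.06 CPM (WT means 1.08 and 1.54). This order of the null libraries was not particular to these 2 lists. Markers of mast cells, basophils and eosinophils summed to 86.4 and 53.0 in WT and 141, 77.1 and 31.7 in null (CPM). The median of the 5 tested late erythroid markers lay at 2.77, 1.41 and -0.21 relative to the WT mean (log2) in null libraries 1, 2 and 3. The sum of the late erythroid list did not follow it (546, 461 and 478 CPM). The part of any of these cell types in the level of Ifitm6 was not tested.

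**Figure D2:**
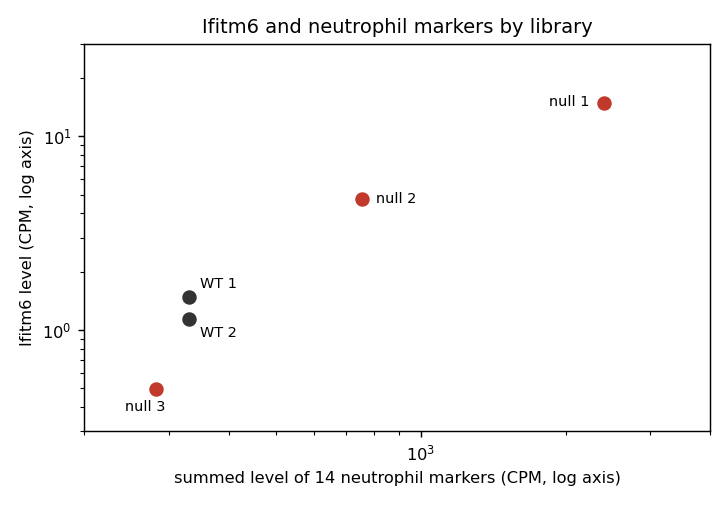
Ifitm6 level against the summed level of 14 neutrophil markers in each library, both in CPM on log axes (black, WT; red, Gabbr1 null). Null library 1 has the highest value on both axes, followed by null library 2. Null library 3 is lowest on both, on the marker axis only with Csf3r in the sum.

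Ifitm10 was barely read, with 0 and 1 counts in WT and 2, 2 and 1 in null, and was not tested. Where no count was found, as in WT library 1, up to 3 counts remain possible. Of 9 other genes with the same CD225 domain in the table, Ifitm5, a bone-forming cell gene, had 3 to 12 counts per library and Ifitm7, on chromosome 16, had 10 to 22. Ifitm7 was not called (log2 fold change -0.61 ± 0.45, edgeR adjusted p = 0.639). 259 of its 2376 exonic bases overlap 2900011O08Rik on the opposite strand, so reads of that stretch cannot be told apart without strand. Tmem91 had 31 to 45 counts, and was at 0.12 ± 0.30 (log2, SE, edgeR adjusted p = 0.921). Prrt1, Prrt2, Syndig1 and Syndig1l had at most 8 counts in a library, and Trarg1 and Tmem233 had none in any library.

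Interferon-induced genes outside the family were not called between genotypes. By edgeR, DESeq2 and limma-voom alike, 0 of 48 tested genes passed, near the edgeR shares of 2.15% higher and 0.334% lower over all tested genes. The unadjusted p was under 0.05 for 2 with a positive and 0 with a negative change, against 7.99% and 4.84% of all tested genes. The median log2 fold change was 0.02, beside -0.0045 over all tested genes. Ly6e, a membrane protein gene, and Trim25, a ubiquitin ligase gene, were the most abundant, at 0.18 ± 0.15 and 0.10 ± 0.11 on the log2 scale (SE). The libraries differed within null. The median of the list lay 0.32 above the WT mean on the log2 scale in null library 1, and below it in the other null libraries (-0.26 in library 2 and -0.18 in library 3).

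Ifitm3 lay at -0.06, -0.72 and -0.48 relative to its WT mean in null libraries 1, 2 and 3, so that it was highest where the interferon-induced list was highest and lowest where that list was lowest. Ifitm2 lay at -0.27, -0.39 and -0.18, with its lowest value in null library 2 as well. Ifitm1 lay at -0.81, -0.51 and -0.91, and its value in null library 1 was far below that of the list. An order of 3 libraries was not tested.

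**Figure D3:**
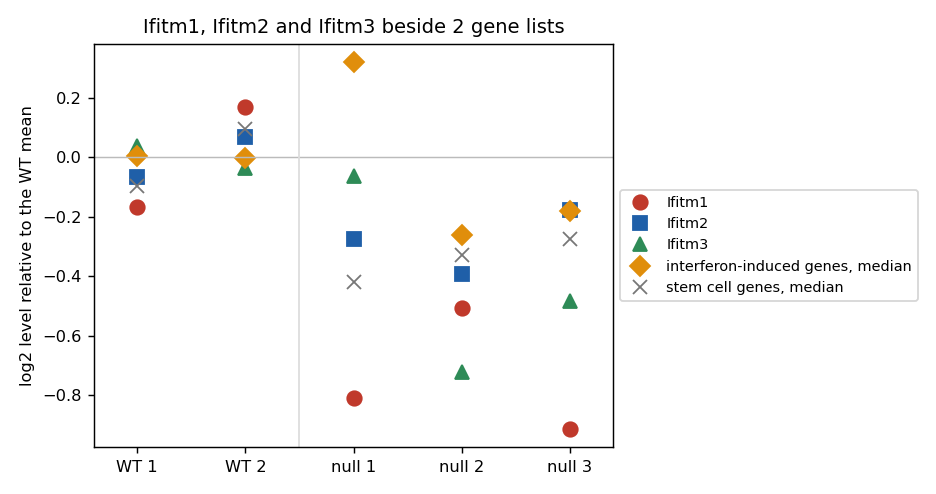
Log2 level relative to the WT mean in each library for Ifitm1, Ifitm2 and Ifitm3, beside the medians of the lists of interferon-induced genes (48 tested) and stem cell genes (23 tested). In null library 1 the interferon-induced median is at 0.32 and Ifitm3 at -0.06, while Ifitm1 is at -0.81.

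Receptors and signal carriers of the interferon pathway were not called, with 1 exception. Of 21 tested, 1 was higher and 0 lower, also by DESeq2 and limma-voom (unadjusted p under 0.05: 2 higher, 1 lower). Over all tested genes edgeR called 2.15% higher and 0.334% lower. The median log2 fold change of the list was 0.03. The kinase gene Jak1 and the transcription factor gene Stat3, the most abundant of this list, stood at 0.10 ± 0.12 and -0.17 ± 0.12 on the log2 scale (SE). Irf8, a transcription factor of the interferon response and of myeloid and B cell development, was the gene that rose. Its WT libraries were at 39.1 and 34.5 CPM and its null libraries at 159, 86.6 and 77.7 CPM, all above WT. The log2 fold change was 1.55 ± 0.26 (SE), with an edgeR adjusted p of 0.00728. It was not called without WT library 1, without WT library 2 or in a robust fit (adjusted p = 0.115, 0.304 and 0.318). Summed B-lineage markers (17 genes) were at 308 and 141 in WT and 1489, 851 and 1362 in null (CPM). Of the 17, 14 were called higher and none was at 0 in any library. The monocyte, macrophage and dendritic cell markers above summed to 138 and 145 in WT and 304, 176 and 131 in null (CPM). The part of either group of cells in the level of Irf8 was not tested.

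Genes whose products process, modify or bind IFITM proteins were likewise not called apart from 1. Of 13 tested, 1 was higher and 0 lower by each of the 3 tools (unadjusted p under 0.05: 2 and 0). Among all tested genes edgeR called 2.15% higher and 0.334% lower. The median log2 fold change of the list was 0.08. Cd81, a tetraspanin that binds IFITM proteins, had a WT mean of 244 ± 17.2 CPM and a null mean of 233 ± 23.4 CPM (SD over 2 and 3 libraries, edgeR adjusted p = 0.885). Zmpste24, a membrane protease that works with IFITM proteins in virus defence, had means of 70.4 ± 1.18 and 79.0 ± 3.74 CPM (SD, edgeR adjusted p = 0.575).

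Stem cell genes other than Ifitm1 were lower in part. Of 23 tested, edgeR called 3 lower and 0 higher, DESeq2 4 and 0, and limma-voom 3 and 0 (unadjusted p under 0.05: 10 lower, 2 higher). The edgeR shares over all tested genes were 0.334% lower and 2.15% higher. The median log2 fold change of the list was -0.40. 2 of the 3 were Hlf and Hoxa9, which encode transcription factors of stem cells. Hlf stood at 692 and 677 CPM in the WT libraries and 424, 526 and 443 CPM in the null libraries and Hoxa9 at 169 and 149 CPM in the WT libraries and 111, 118 and 109 CPM in the null libraries, neither with overlap between the groups. Their log2 fold changes were -0.56 ± 0.13 and -0.50 ± 0.11 (SE), with edgeR adjusted p of 0.0398 and 0.0284. None of the list was called without WT library 2 or without null library 3, and 1 gene was called without WT library 1 or null library 1. The list median was -0.42, -0.33 and -0.28 relative to the WT mean in null libraries 1, 2 and 3, beside -0.81, -0.51 and -0.91 for Ifitm1. The sort marker Kit was at 995 and 1049 CPM in WT and 864 to 987 CPM in null, and Ly6a, which encodes Sca-1, at 12.9 to 30.3 CPM, lowest in null library 2. Of 6 LSK gate and subset markers tested, these 2 included, 5 had a negative change and 1 a positive one. Their median log2 fold change was -0.23, and 0 were called. At an unadjusted edgeR p under 0.05, 2 were lower, as were 4.84% of all tested genes. Beside the B-lineage and neutrophil markers above, 11 of 16 tested endothelial and stromal markers were called higher in null, with a median log2 fold change of 3.47 (3.33 with the 3 genes at 0 in WT set against 3 counts over the WT libraries). The 18 genes summed to 263 and 311 in WT and 556, 549 and 434 in null (CPM). Without Pecam1, Tie1 and Pdgfrb, the 3 most abundant in WT, the WT libraries came to 32.7 and 39.2 CPM and the null libraries to 274, 259 and 163 CPM. Lepr, Pdgfra, Col2a1 and Acan of that list were at 0 in both WT libraries. The part of such cells in the levels of Ifitm1 and the stem cell genes was not tested.

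Genes around the cluster were not called. Within 250 kb of the span from Ifitm5 to Ifitm6, 19 other genes were tested. None passed by any of the 3 tools, near the edgeR shares of 2.15% higher and 0.334% lower over all tested genes. At an unadjusted p under 0.05, 0 were higher and 1 was lower. Their median log2 fold change was -0.05, and they ranged from -0.65 to 0.28. Pgghg, the nearest tested gene before the cluster, was at -0.28 ± 0.15 (SE, edgeR adjusted p = 0.463). B4galnt4, a glycosyltransferase gene and the nearest tested gene on the other side, had the lowest value of the 19, with 113 and 105 counts in WT and 76, 77 and 59 in null (-0.65 ± 0.22 SE, edgeR adjusted p = 0.195). Beyond these, Psmd13, a proteasome subunit gene, was at 0.02 ± 0.10 and Pkp3, a plakophilin gene, at -0.21 ± 0.26 (SE). Irf7, which encodes a transcription factor that amplifies interferon production, lies 244782 bases from the cluster and had 292 and 267 counts in WT and 507, 174 and 270 in null. Like Ifitm3, Irf7 was highest among the null libraries in library 1 and lowest in library 2. Around Ifitm10, 6 genes were tested and none passed by any of the 3 tools, again near the shares over all tested genes. At an unadjusted p under 0.05, 1 was higher and 0 lower. This was the imprinted RNA gene H19, at 1.75 ± 0.49 (SE, edgeR adjusted p = 0.106).

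**Figure D4:**
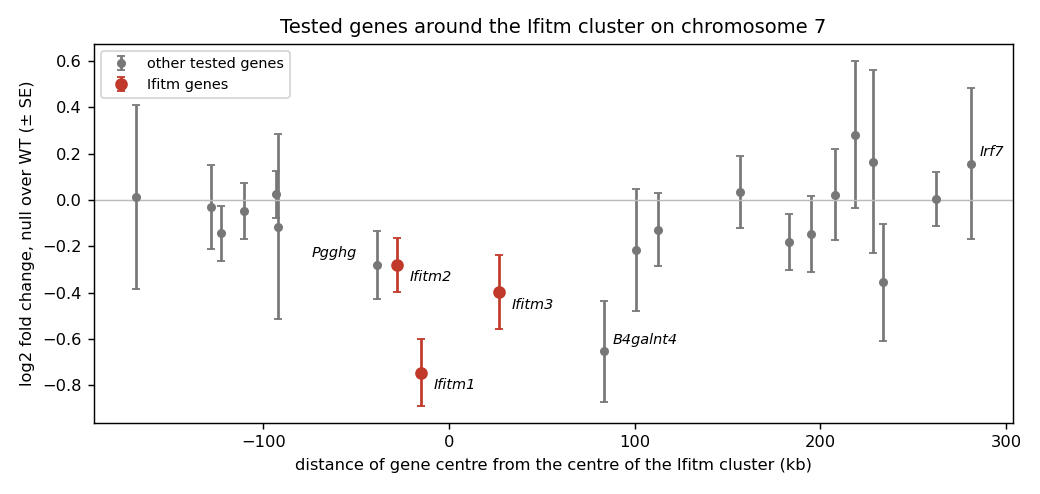
Log2 fold change (null over WT, with SE) of tested genes within 250 kb of the Ifitm cluster, by distance of the gene centre from the centre of the cluster in kb (red, Ifitm1, Ifitm2 and Ifitm3; grey, 19 other genes; Ifitm6, at 2.33, is not drawn). Ifitm1 has the lowest value at -0.74, followed by B4galnt4 at -0.65.

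Genes with the pattern most like that of each member were found by the root mean square difference in log2 CPM over the 5 libraries, each gene being centred on its mean, among 9657 genes with a mean of at least 10 CPM. For Ifitm1 these were Rab11fip3 (0.069), C77080 (0.075), 2310061I04Rik (0.078), Shisa8 (0.091) and Cdk18 (0.092). For Ifitm2 they were Cyp2j9, Mdfic, Ssbp4, Tmem115 and Spry2, with differences of 0.011 to 0.028, and for Ifitm3 Taf7, Med29, Nt5m, Wdr53 and Sap30l, with 0.072 to 0.094. Between the members the differences were 0.22 for Ifitm2 and Ifitm3, 0.31 for Ifitm1 and Ifitm2 and 0.37 for Ifitm1 and Ifitm3. The genes named above were picked as the smallest differences among 9657, so a fixed pair is likely to exceed them. Whether the members vary together was not tested. Only 1 of the 5 genes most like Ifitm1, Shisa8, was itself called (edgeR adjusted p = 0.0188). Ifitm6, with a mean below the minimum, was left out.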

How the data were processed

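The authors deposited whole-number read counts per gene for 5 libraries (2 WT, 3 Gabbr1 null) with no normalization. Per the labels' protocols, libraries were made with a low-input kit from 3.6 to 5 ng of RNA, and fragments were read from both ends. The submitters' processing notes name the tools STAR and featureCounts and the build mm10. Versions, annotation, strandedness and the handling of multi-mapping reads are not stated there or in the labels. 99.5% of gene identifiers matched GENCODE release M21 without their version, and symbols, lengths and coordinates came from it.

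Genes were kept with filterByExpr (13467), and edgeR 4.0.16 (R 4.3.3) gave TMM factors and quasi-likelihood tests with genotype as the only term. Benjamini-Hochberg adjusted p under 0.05 over all tested genes was the threshold. Standard errors came from the F statistic, and values per library relative to WT used log2 CPM with a prior count of 2. DESeq2 1.42.0, limma-voom (limma 3.58.1), other scalings and filters, a robust fit, sex as a term and each library left out were alternatives. Leaving out marker genes of other cell types, levels per unshared sequence, and marker sums without their most abundant members were added later. Members and lists were chosen with earlier results of these data known. Named genes were the members and their relatives, interferon, partner and stem cell list genes past the threshold, the most abundant interferon genes, the nearest or called neighbours and the 5 most similar genes. Other names (Ltf, Ngp, Mmp8, Retnlg, Ly6g, Csf3r, Padi4, C1qa, C1qb, Ccr2, F13a1, Cd81, Zmpste24, Lepr, Pecam1, Tie1, Pdgfra, Pdgfrb, Col2a1, Acan, H19 and Irf7) were chosen after their values were seen. Of the genes past the threshold, 1 IFITM partner and 1 stem cell gene are counted but not reported here by name.

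On counts simulated for null over WT with 13220 genes, the code recovered 41.8%, 85.1% and 98.5% of genes changed 1.5-fold, 2-fold and 4-fold, and 13 of 163 calls were unchanged genes. Whether molecular identifiers were used is not stated, so a limit of 3 counts for a count of 0 covers counting error only.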

Additional observations from a re-analysis of the deposited data

How the results depend on the processing

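No paired analysis was possible because the labels give no batch or pairing. Ifitm1, Ifitm2 and Ifitm3 had a negative log2 fold change in each of the 14 alternative fits, and Ifitm6 a positive one in each that kept it. Leaving out each library in turn gave log2 fold changes of -0.92 to -0.57 for Ifitm1, -0.36 to -0.21 for Ifitm2, -0.60 to -0.25 for Ifitm3 and 0.97 to 2.89 for Ifitm6. In fits with a single WT library, its spread was taken to equal that of the null libraries. Ifitm3 was called with no filter (-0.40) and with sex as a term (-0.60), which removes null library 1 from the contrast, and Ifitm6 with no filter (2.32); limma-voom gave 1.26 and sex as a term 0.96 for Ifitm6, neither called. Genes called higher were 602 with no filter, 173 with at least 1 CPM in every library and 32 to 316 with a library left out; genes called lower were 155 with no filter and 0 to 51 with a library left out (both lowest without WT library 2, and 15 lower without null library 3, 101 higher without WT library 1). In the interferon signalling list 2 genes were higher with no filter, 0 in the robust fit and 0 to 1 with a library left out. In the stem cell list 7 were lower with no filter, 6 in the robust fit, 1 with sex as a term and 0 to 3 with a library left out. Leaving marker genes out of the table, which also shortens the list of IFITM partners, left 0 genes higher in that list. Per kilobase of its longest transcript Ifitm1 was at 115 in WT, above the 105 of Ifitm2, and per kilobase of unshared stretches Ifitm2 was at 221 and Ifitm3 at 257. With the motif read on the strand of the gene only, 1.74% of windows held the interferon motif. With the mean absolute difference, 3 of the 5 genes most like Ifitm1 and 4 of 5 for Ifitm2 and Ifitm3 were the same. The cause of these changes was not tested.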
